A study of Mus musculus with 32 samples.

Results

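The 10 genes described here are Fos, Fosb, Jun, Junb, Egr1, Atf3, Ier2, Dusp1, Nr4a1 and Nr4a3, out of 20659 named mouse genes on the arrays. They are immediate-early genes, and each was found through the transcript identifier that the array files give for its probe. Each gene had exactly 1 probe, so 10 probes carry all the values below. Those of Fos and Nr4a3 were printed as 10 spots per array, which were averaged, and the others as 1. RNA from 32 mouse samples of the C57Bl/6 strain was hybridised to one-colour Agilent arrays, in 8 groups of 4. In culture, at room temperature, there were a Pparg control and a Pparg knockdown, and a Gyk control and a Gyk knockdown. In mice there were a Pparg control and a Pparg knockout, each at room temperature and after cold exposure. Pparg is the nuclear receptor that drives fat cell differentiation, and Gyk is the study's name for the glycerol kinase gene, Gk. The labels do not give the knockdown method, the promoter or cell type in which Pparg was deleted, the animals' age, the length of the cold exposure, or whether the 4 samples of a group were separate cultures or animals. All p-values rest on how far the 4 samples of a group differ, and that difference may be technical.

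Immediate-early genes are the first genes a cell transcribes after a signal, because the factors that switch them on are already present and need only be modified. Serum response factor with its Elk partners, and the cAMP response element binding protein Creb1, are the best known of these factors, and the resulting transcripts are short-lived. In brown fat, noradrenaline released in the cold raises cAMP in the adipocyte and so acts on this class of genes. Fos, Fosb, Jun and Junb encode the subunits of the dimeric transcription factor AP-1. Atf3 encodes a related factor of the stress response, and Egr1 a zinc-finger factor induced by growth signals. Nr4a1 and Nr4a3 encode orphan nuclear receptors that act without a bound hormone. Dusp1 encodes a phosphatase that switches off MAP kinases, and Ier2 a small nuclear protein.

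Promoter sequences of 8 of the 10 genes were taken from RefSeq (build GRCm38.p6), and the 250 bases before the gene start were searched. Egr1 and Ier2 were not searched, so the counts below say nothing about their promoters. The 5 shown are those of the pair of receptors with the largest rise in the cold on arrays labelled knockout, of the gene that differed most between cold arrays, of the phosphatase, and of Jun, the contrast. They read 5′ to 3′ toward the gene start, and capitals mark the cAMP response element TGACGTCA and its core TGACG on either strand.
Nr4a1 (chr15:101266596-101266845, plus strand): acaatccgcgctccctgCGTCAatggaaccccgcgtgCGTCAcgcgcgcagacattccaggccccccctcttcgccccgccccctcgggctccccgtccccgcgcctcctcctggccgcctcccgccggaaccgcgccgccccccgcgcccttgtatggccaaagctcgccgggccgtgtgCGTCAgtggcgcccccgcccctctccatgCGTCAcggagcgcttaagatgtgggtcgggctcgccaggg
Nr4a3 (chr4:48045055-48045304, plus strand): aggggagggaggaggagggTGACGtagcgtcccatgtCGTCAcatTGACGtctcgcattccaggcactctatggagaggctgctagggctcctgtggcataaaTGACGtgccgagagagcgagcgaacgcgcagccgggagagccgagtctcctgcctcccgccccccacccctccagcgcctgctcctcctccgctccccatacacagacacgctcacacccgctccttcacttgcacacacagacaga
Fos (chr12:85473640-85473889, plus strand): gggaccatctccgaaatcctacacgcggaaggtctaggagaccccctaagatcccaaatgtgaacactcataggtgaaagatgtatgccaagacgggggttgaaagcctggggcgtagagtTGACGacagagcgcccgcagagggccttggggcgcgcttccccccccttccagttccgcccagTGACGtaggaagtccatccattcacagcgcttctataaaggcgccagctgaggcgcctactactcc
Dusp1 (chr17:26508473-26508722, minus strand): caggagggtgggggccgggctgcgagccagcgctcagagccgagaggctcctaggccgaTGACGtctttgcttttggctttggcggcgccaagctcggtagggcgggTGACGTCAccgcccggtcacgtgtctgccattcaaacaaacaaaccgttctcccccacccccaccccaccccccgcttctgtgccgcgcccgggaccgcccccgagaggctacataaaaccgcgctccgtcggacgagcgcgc
Jun (chr4:95052223-95052472, minus strand): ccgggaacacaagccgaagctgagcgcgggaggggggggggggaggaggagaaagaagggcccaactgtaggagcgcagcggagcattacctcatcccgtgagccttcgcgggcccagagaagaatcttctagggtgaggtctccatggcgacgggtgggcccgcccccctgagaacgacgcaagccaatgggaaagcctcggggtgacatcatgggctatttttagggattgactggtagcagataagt
The core, which is also counted inside a full element, was found in 7 of the 8 promoters searched, and in 17.8% of all 32851 RefSeq promoters cut to the same length. Nr4a1 and Nr4a3 held 4 cores each and Fos held 2. Dusp1 was the only one of the 8 with the full element TGACGTCA, which 1.55% of all promoters held, and Jun was the only one with no core. The Jun window does hold tgacatca, which departs from the full element by a single letter and was not counted. The AP-1 site TGANTCA (6.75% of all promoters), the CArG box bound by serum response factor (1.47%) and the NBRE bound by Nr4a receptors, AAAGGTCA (1.34%), had no match in the 8 windows. A match is a run of letters and not a measured binding site. Sites further upstream than 250 bases, or with other letters, were not searched for, so no match does not mean that a gene lacks such a site.

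All levels below are log2 intensities relative to the 75th percentile of the same array, so a level of 0 equals that percentile, and they are compared between arrays for the same gene only. The 75th percentile ranged from 140.7 to 808.2 intensity units, and 46.7% to 60.9% of spots were well above background on an array. The lowest percentiles, 140.7 and 241.7, were those of Gyk knockdown arrays 3 and 4. The targeted genes were read first. Pparg fell by 1.92 in the culture knockdown (SE 0.12, adjusted p = 7.49e-06, limma) and Gk fell by 2.40 in the Gyk knockdown (SE 0.39, adjusted p = 0.0117, limma). On the mouse arrays labelled Pparg knockout, however, the single Pparg probe was brighter than on control arrays, by 2.07 at room temperature and 2.13 in the cold, and the files do not give its position relative to the deleted part. Directions for the knockout therefore rest on the labels. Ucp1 was lower on knockout arrays, by -1.02 at room temperature (adjusted p = 0.00451) and -1.01 in the cold (adjusted p = 0.0043) in limma, and 6 of 8 brown adipocyte markers fell at each temperature. The labels call every sample preadipocytes, yet 7 or 8 of 8 brown adipocyte markers, Ucp1 among them, were well above background on every array. All 8 preadipocyte and fibroblast markers were as well. The arrays lay on 8 slides of 4 arrays, a pair of slides and 1 scan day for each experiment, so that room temperature and cold cannot be told apart from slide and scan day.

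Across the 8 groups, 9 of the 10 genes had their highest mean level on the cold arrays labelled knockout. Atf3 was highest in the Gyk knockdown (0.89 ± 0.48, SD, n = 4), with the cold knockout next (0.51 ± 2.23). Few neighbours in these orders had separate ranges. For Nr4a1 the gap lay between the cold control (5.63 ± 2.25) and the room-temperature knockout (1.21 ± 0.44), and all 8 cold arrays exceeded all 24 others. For Nr4a3 it lay between the cold knockout (-1.47 ± 1.24) and the cold control (-4.52 ± 1.64). The Nr4a3 probe was not well above background on any of the 16 culture arrays or the 8 room-temperature mouse arrays, so its levels there have no order. The SD between the 4 arrays of a group was larger in the cold than elsewhere for Fos, with 3.01 in the cold control and 4.28 in the cold knockout, against 0.17 to 0.71 in the other 6 groups.

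**Figure D1:**
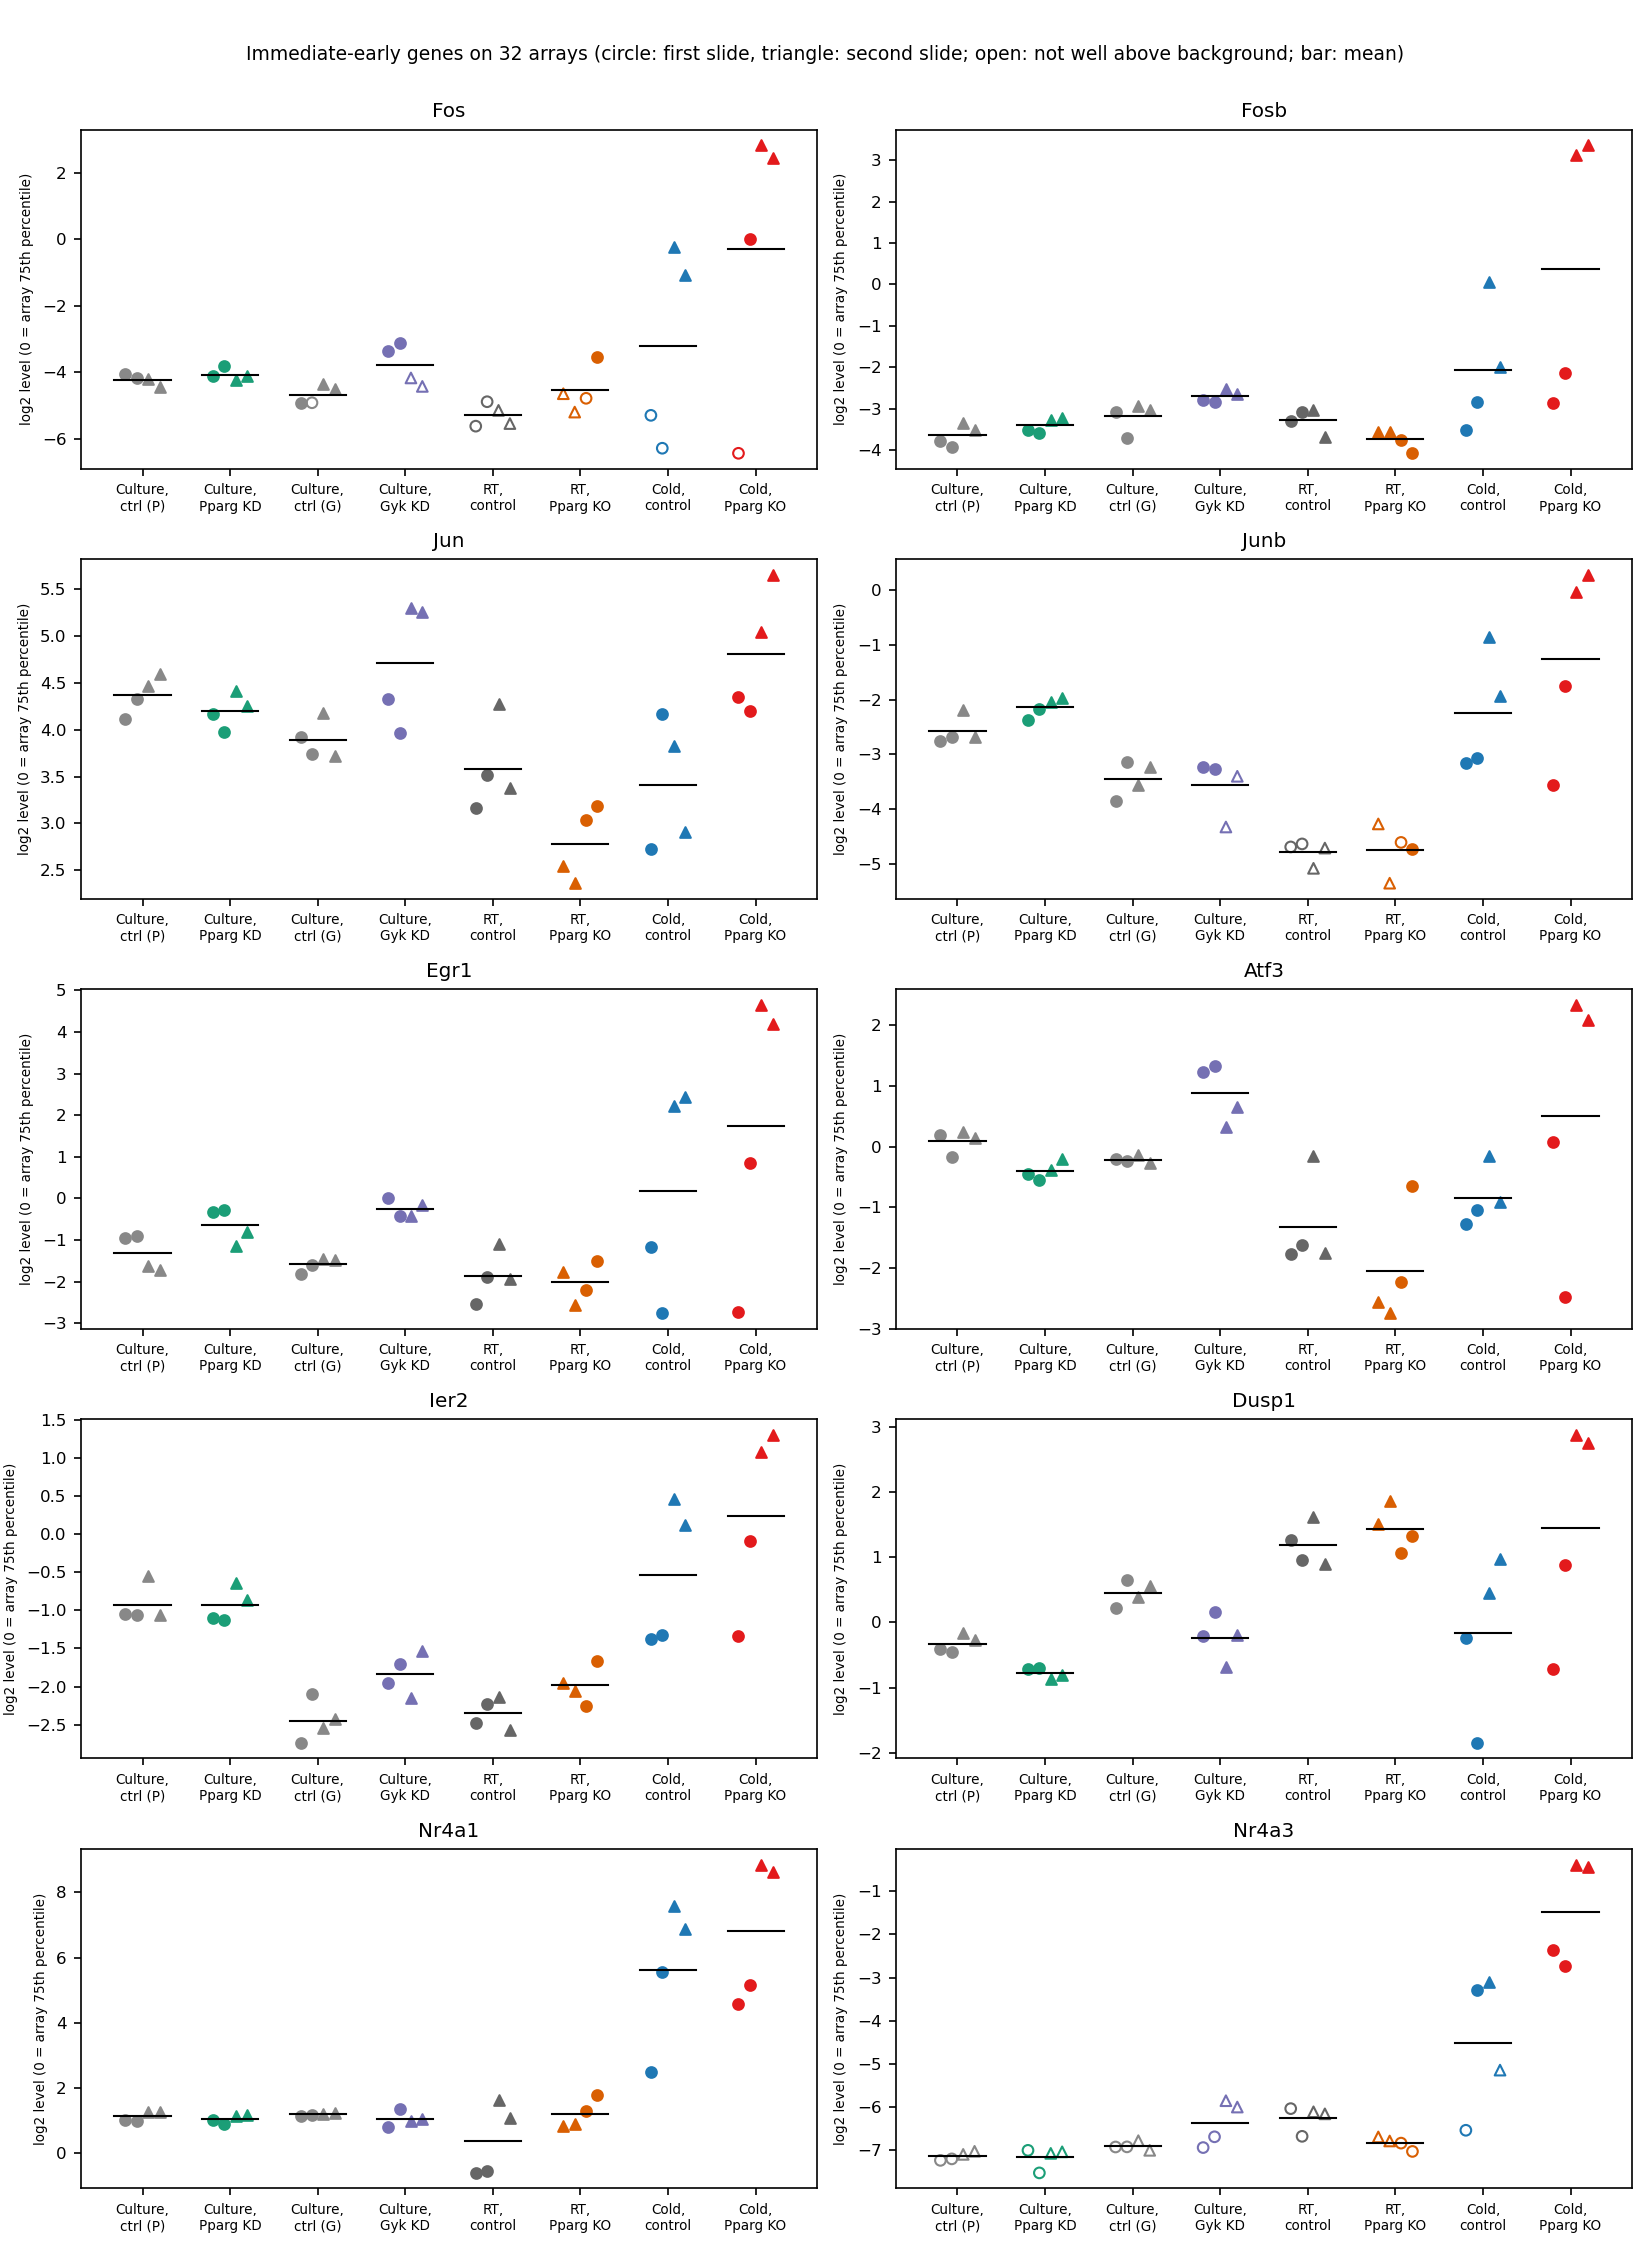
Level of each gene on each of the 32 arrays (y axis, log2 relative to the array's 75th percentile) in the 8 groups (x axis), with circles and triangles for the 2 slides of an experiment, open symbols for arrays not well above background and bars for group means. Nr4a1 lies above 2 on all 8 cold arrays and below 2 on all 24 others, and for Fos, Fosb and Egr1 the cold arrays are spread over more than 3 log2 units within a group.

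In control mice, 4 of the 10 genes were called higher in the cold than at room temperature, the receptors Nr4a1 and Nr4a3, the AP-1 subunit Junb, and Ier2. Slide and scan day differed along with temperature. None fell. Of the 14068 genes tested in this comparison 66.7% changed (41.6% of all genes tested rose and 25.1% fell), and the median gene stood 0.23 higher in the cold, so 4 of 10 is near the background share for a rise. The median of the 10 genes was 1.78. Without the first cold slide 6 genes were called, with Fos (4.64, adjusted p = 4.02e-06), Fosb (2.31, adjusted p = 0.000792) and Egr1 (4.18, adjusted p = 3.89e-06) added by limma and Nr4a3 not tested. Without the second, 3 rose, Dusp1 fell (-2.23, adjusted p = 0.00226, limma), and Fos and Nr4a3 were not tested. The summed macrophage markers were 20.7 to 29.8 at room temperature and 13.9 to 16.3 in the cold. Gene by gene, however, 2 of these 5 markers rose and 1 fell, with a median difference of 0.39. Itgam alone read 3.85 to 4.25 at room temperature and -0.18 to 0.75 in the cold, so the sum does not describe all 5. The part of these markers in the result was not tested. In bulk RNA, fewer cells of a type and less RNA per cell cannot be told apart.

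Nr4a1 stood at -0.59, -0.55, 1.63 and 1.08 on room-temperature control arrays 1 to 4 and at 2.49, 5.56, 7.57 and 6.87 on cold control arrays 1 to 4. The groups did not overlap, and the lowest cold array was 1 of the 2 on the first cold slide. The difference was 5.23 (SE 1.10, adjusted p = 0.000711, limma), a fold of 37.6. Nr4a3, the other receptor, was not well above background on any room-temperature array, and in the cold it was so on arrays 2 (-3.29) and 3 (-3.10) but not on arrays 1 (-6.55) and 4 (-5.15). Its fitted difference of 1.73 passed the threshold (adjusted p = 0.0343, limma), but no fold can be given from 2 measured arrays. The call was lost in 6 of 8 fits with 1 array left out, namely cold arrays 2 or 3 or any room-temperature array (highest adjusted p = 0.116), with slide as a random block (adjusted p = 0.0577) and with normexp background correction (0.355).

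Among the AP-1 subunits, Junb read -4.69, -4.64, -5.08 and -4.71 at room temperature, not well above background on any of these arrays, and -3.16, -3.07, -0.85 and -1.94 in the cold. All cold arrays exceeded all room-temperature arrays. The cold mean was at least 4.37-fold above the room-temperature mean, taken with dim signals raised to the lowest level called above background on their arrays (fitted difference 2.53, SE 0.69, adjusted p = 0.0049, limma). With normexp background correction Junb was not called (difference 0.88, adjusted p = 0.0577). Fos stood at -5.30, -6.29, -0.24 and -1.08 on cold control arrays 1 to 4, against -5.62 to -4.89 at room temperature, where no array was well above background. The first pair of cold arrays, also not well above background, lay at or below the room-temperature range and the second pair far above it. The difference of 2.07 (SE 1.71) did not pass (adjusted p = 0.297, limma). Fosb differed by 1.21 (adjusted p = 0.386) and Jun by -0.17 (adjusted p = 0.695), both with overlapping groups.

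Ier2 rose from -2.48, -2.23, -2.13 and -2.57 to -1.37, -1.33, 0.46 and 0.11, again without overlap (1.82, SE 0.51, adjusted p = 0.00586, limma). Egr1 read -1.16, -2.75, 2.22 and 2.43 in the cold and -2.53 to -1.08 at room temperature, and its difference of 2.04 did not pass (adjusted p = 0.212). Atf3 differed by 0.48 (adjusted p = 0.628). Dusp1 was the one gene other than Jun with a negative difference, -1.35 (adjusted p = 0.0995). It read -0.25 and -1.85 on cold arrays 1 and 2, below the 0.90 to 1.62 of room temperature, and 0.45 and 0.97 on arrays 3 and 4. Without the slide of arrays 3 and 4, Dusp1 was called lower in the cold (-2.23, adjusted p = 0.00226, limma).

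On the arrays labelled knockout, 9 of the 10 genes rose in the cold and Dusp1 did not change detectably. The background was again wide, since 65.6% of the 14068 genes changed, 41.1% rising and 24.5% falling. The median of the 10 genes was 3.61, against 0.24 for all genes tested. This comparison and the one in control mice use different arrays, but both carry the slide and scan-day difference. Marker sums of other cells moved with it: neutrophil markers from 0.751 to 1.517 at room temperature to 2.499 to 7.869 in the cold, and preadipocyte and fibroblast markers from 71.7 to 88.1 to 140.8 to 191.8. Gene by gene, 4 of these 8 preadipocyte and fibroblast markers rose and 0 fell. Dcn, the brightest, read 5.42 to 5.55 and then 6.72 to 7.13, while Col1a1 read 2.90 to 3.75 and 3.03 to 3.61. Ucp1 differed by -1.03 in the cold (adjusted p = 0.00163, limma), and by -1.04 in control mice (adjusted p = 0.0015, limma). The part of these in the result was not tested. Without the first cold slide 9 genes were called higher, Dusp1 among them, with Nr4a3 not tested. Without the second, 5 rose, Dusp1 fell (-1.35, adjusted p = 0.0325, limma), and Fos and Nr4a3 were not tested.

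Nr4a3 read -6.70, -6.79, -6.84 and -7.04 at room temperature, all not well above background. In the cold it read -2.36, -2.72, -0.38 and -0.43, all well above it. Nr4a3 passed the filter of the mouse fit through cold arrays alone, so its adjusted p is not independent support for the rise. On the scale used here the means differ by at least 11.6-fold (fitted difference 5.37, SE 0.67, adjusted p = 6.35e-06, limma). With normexp background correction, the difference was 1.98 and still called. Nr4a1 went from 0.83, 0.91, 1.31 and 1.80 to 4.56, 5.16, 8.85 and 8.63, a difference of 5.59 (SE 1.10, adjusted p = 0.000423, limma). Both receptors were thus separated completely, and for both the second pair of cold arrays was the higher one.

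The AP-1 subunits all rose on these arrays. Fosb read -3.56, -3.56, -3.74 and -4.07 at room temperature and -2.87, -2.14, 3.11 and 3.37 in the cold (4.10, SE 1.19, adjusted p = 0.00741, limma). Jun, well above background everywhere, went from 2.54, 2.36, 3.04 and 3.19 to 4.35, 4.20, 5.04 and 5.66 (2.03, SE 0.38, adjusted p = 0.000253, limma), with no overlap. Junb rose by 3.48 (SE 0.69, adjusted p = 0.000462, limma), against a room-temperature group in which only 1 of 4 arrays was well above background. With normexp its difference was 1.96 and still called. Fos spanned -6.44, 0.0046, 2.83 and 2.43 in the cold, so cold array 1 lay below every room-temperature array and the other 3 lay above them all. Fos was well above background on 1 of 4 room-temperature arrays and 3 of 4 cold arrays, and its difference of 4.25 (SE 1.71) passed narrowly (adjusted p = 0.0401, limma). Leaving out any 1 of cold arrays 2, 3 and 4 or room-temperature arrays 1, 2 and 3 ended the call for Fos (highest adjusted p = 0.127), as did no filter on dim probes (0.0552).

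Ier2 rose by 2.22 (SE 0.51, adjusted p = 0.00152), Egr1 by 3.75 (SE 1.40, adjusted p = 0.0289) and Atf3 by 2.56 (SE 0.84, adjusted p = 0.0151) in the same limma fit. Egr1 read -2.72, 0.86, 4.65 and 4.19 in the cold against -2.55 to -1.51 at room temperature. Atf3 read 0.07, -2.48, 2.34 and 2.10 against -2.75 to -0.65. In both genes a single array of the first cold slide stayed within or below the room-temperature range, array 1 for Egr1 and array 2 for Atf3. Without the second cold slide Egr1 stood 1.07 higher (adjusted p = 0.281) and Atf3 0.85 (adjusted p = 0.353), neither called, and Fosb 1.23 (adjusted p = 0.00245, limma). The Egr1 call was also lost without cold arrays 3 or 4 or room-temperature arrays 2 or 3 (highest adjusted p = 0.0993), and the Atf3 call without cold arrays 3 or 4 (0.0555 and 0.0544). Dusp1 read -0.71, 0.88, 2.88 and 2.75 in the cold, on both sides of its room-temperature range of 1.06 to 1.86, and the difference was 0.01 (SE 0.70, adjusted p = 0.988). Its sign depended on single arrays, from -0.46 without cold array 3 to 0.73 without cold array 1, and it was called lower without the second cold slide (-1.35, adjusted p = 0.0325, limma).

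**Figure D2:**
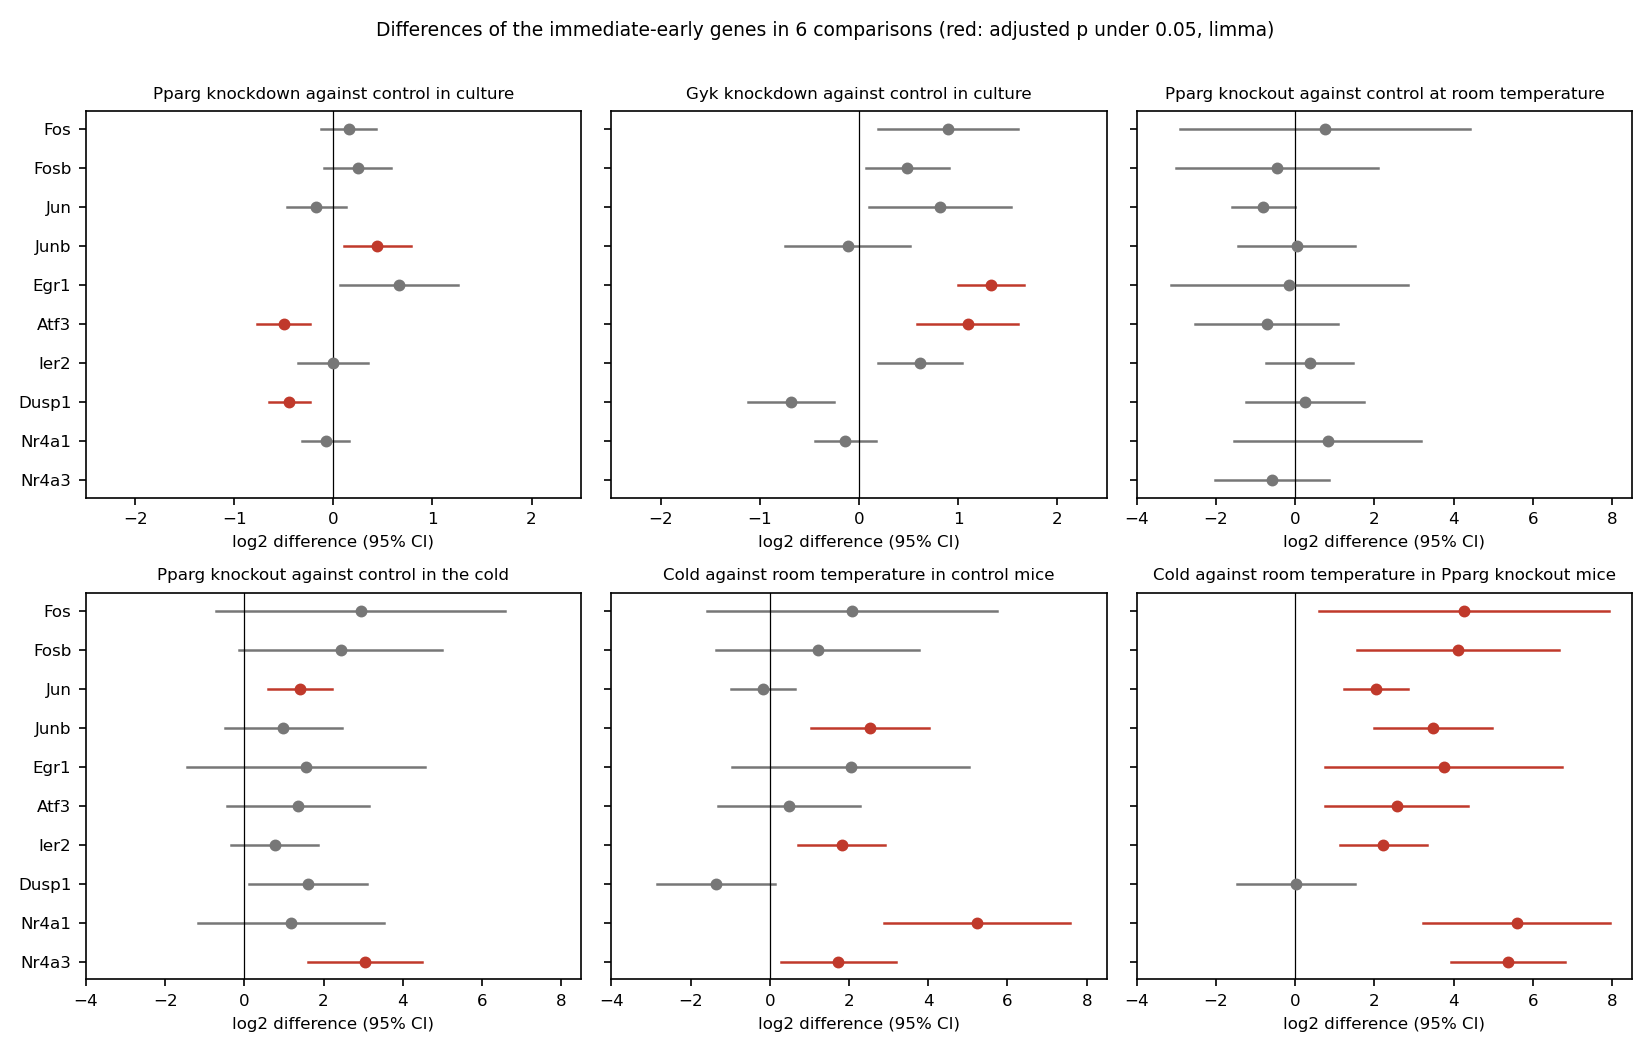
Log2 difference (x axis) with its 95% confidence interval from limma for each gene (y axis) in 6 comparisons, red where the adjusted p is under 0.05. The cold panel of arrays labelled knockout has 9 of 10 genes in red, the one of control mice 4, and the room-temperature knockout panel none. Nr4a3 has no point in the culture panels, where it was not tested.

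Within the cold, the arrays labelled Pparg knockout exceeded the control arrays for all 10 genes by sign, and 2 of them, Jun and Nr4a3, were called. In this comparison 38.3% of the 14068 genes changed, 16% rising and 22.3% falling. The median difference of the 10 genes was 1.48, against -0.05 for all genes. Jun stood at 2.73, 4.17, 3.83 and 2.91 on control arrays and at 4.35, 4.20, 5.04 and 5.66 on knockout arrays, the lowest of which (4.20) just cleared the highest control array (1.40, SE 0.38, adjusted p = 0.00902, limma). Nr4a3, with the levels given above, also had no overlap (3.05, SE 0.67, adjusted p = 0.00272, limma).

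Each cold slide held 2 control and 2 knockout arrays, so the difference could be read within slides. Jun was 0.83 higher on knockout arrays of the first cold slide and 1.98 higher on the second, and Nr4a3 2.37 and 3.72. Fosb differed by 0.66 on the first slide and by 4.20 on the second. Atf3 differed by -0.04 and by 2.75. With slide as a block 6 of the 10 genes were called, Fos (adjusted p = 0.0275), Fosb (0.00676), Jun (0.00973), Ier2 (0.0166), Dusp1 (0.00489) and Nr4a3 (0.00135), each with the limma difference unchanged. Without the 4 arrays of the first cold slide 8 of the 9 genes tested were called, all but Nr4a1. Without the 4 of the second none was, and the lowest adjusted p was 0.164, for Fosb. Nr4a3 passed the filter in neither of these fits, and Fos not in the latter. The 38.3% of all genes given above belongs to the fit of all arrays without a block. Shares of all genes called with a block or without the first cold slide are not given here. The counts in these fits are therefore not read as particular to the 10 genes.

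Leaving out single arrays also moved this count. Without cold knockout array 1, where Fos (-6.44), Junb (-3.55) and Egr1 (-2.72) were at their lowest of the cold knockout arrays, 8 genes were called higher, among them Fos by 4.98 (adjusted p = 0.00542, limma). Without cold knockout array 2, 4 were called. Over all genes, the fits with 1 array left out called 4413 to 5524, against 5385 with all arrays. Other cell markers differed between the same groups. The summed linear level of 4 neutrophil markers was 2.499 to 7.869 in the cold knockout and 0.878 to 1.499 in the cold control, with 3 or 4 of 4 well above background. The sum of 8 brown adipocyte markers was 1415 to 2137 in the cold knockout and 3493 to 3678 in the cold control. The sum of 5 macrophage markers was 21.2 to 36.5 against 13.9 to 16.3, with 5 of 5 well above background, and that of 8 preadipocyte and fibroblast markers was 140.8 to 191.8 against 92.8 to 127.4. The part of these cells in the result was not tested.

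The knockout difference itself was larger in the cold than at room temperature for Jun, by 2.21 (SE 0.53, adjusted p = 0.0165, limma), and for Nr4a3, by 3.64 (SE 0.95, adjusted p = 0.0231, limma). In this test 13.3% of all genes changed, 6.13% upward and 7.2% downward, and all 10 genes had a positive difference, with a median of 1.89 against -0.01 for all genes. The 2 calls were lost with normexp background correction (adjusted p = 0.0691 for Jun and 0.0964 for Nr4a3), and that of Nr4a3 also with quantile normalization (0.0529). For Nr4a3, room temperature gives only levels not well above background in both genotypes.

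The cold arrays also differed between their slides. On the second cold slide (control arrays 3 and 4, knockout arrays 3 and 4), 7 of the 10 genes were at least 2-fold higher than on the first in both genotypes, against 0.889% of the 14068 genes. These were Fos, Fosb, Junb, Egr1, Ier2, Dusp1 and Nr4a1. Fos was 5.13 higher in control and 5.85 higher in knockout arrays, Egr1 4.28 and 5.35, Fosb 2.21 and 5.75, and Nr4a1 3.19 and 3.88. On the first cold slide Fos was well above background on knockout array 2 alone, so the size of its difference is uncertain. Junb (1.72 and 2.78), Dusp1 (1.76 and 2.73) and Ier2 (1.64 and 1.90) differed less. Jun (-0.08 in control and 1.07 in knockout arrays), Atf3 (0.63 and 3.42) and Nr4a3 (0.79 and 2.14) were past 2-fold in the knockout alone. Between the room-temperature slides none of the 10 genes was 2-fold higher in both genotypes, against 0.299% of 14066 genes. This split was noticed in these data and carries no test.

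Skeletal muscle markers also differed between the cold arrays. The summed linear level of 6 muscle markers was 139.0 and 174.7 on cold control arrays 1 and 2, 20.0 on cold knockout array 4, 17.9 on room-temperature knockout array 1 and at most 2.204 on the other 12 mouse arrays. On those 4 arrays all 6 markers were well above background. Of the cold knockout arrays with little muscle signal, arrays 1 and 2 of the first slide (muscle sums 0.193 and 0.773) read -6.44 and 0.0046 for Fos, and array 3 of the second (0.165) read 2.83. For Egr1 these 3 arrays read -2.72, 0.86 and 4.65. The part of muscle in the slide difference was not tested. Without the 4 muscle-rich arrays Jun (1.16, adjusted p = 0.0491) and Nr4a3 (2.30, adjusted p = 0.0257) were still called in the cold knockout comparison by limma. The differences of Fos, Junb, Egr1, Ier2 and Nr4a1 turned negative there and were not called. Both cold control arrays that stayed in that fit were on the second slide. Cold against room temperature then gave 6 rises in control mice (the 4 above, Fos and Egr1) and 6 on knockout arrays, with Fos, Egr1 and Atf3 no longer called.

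**Figure D3:**
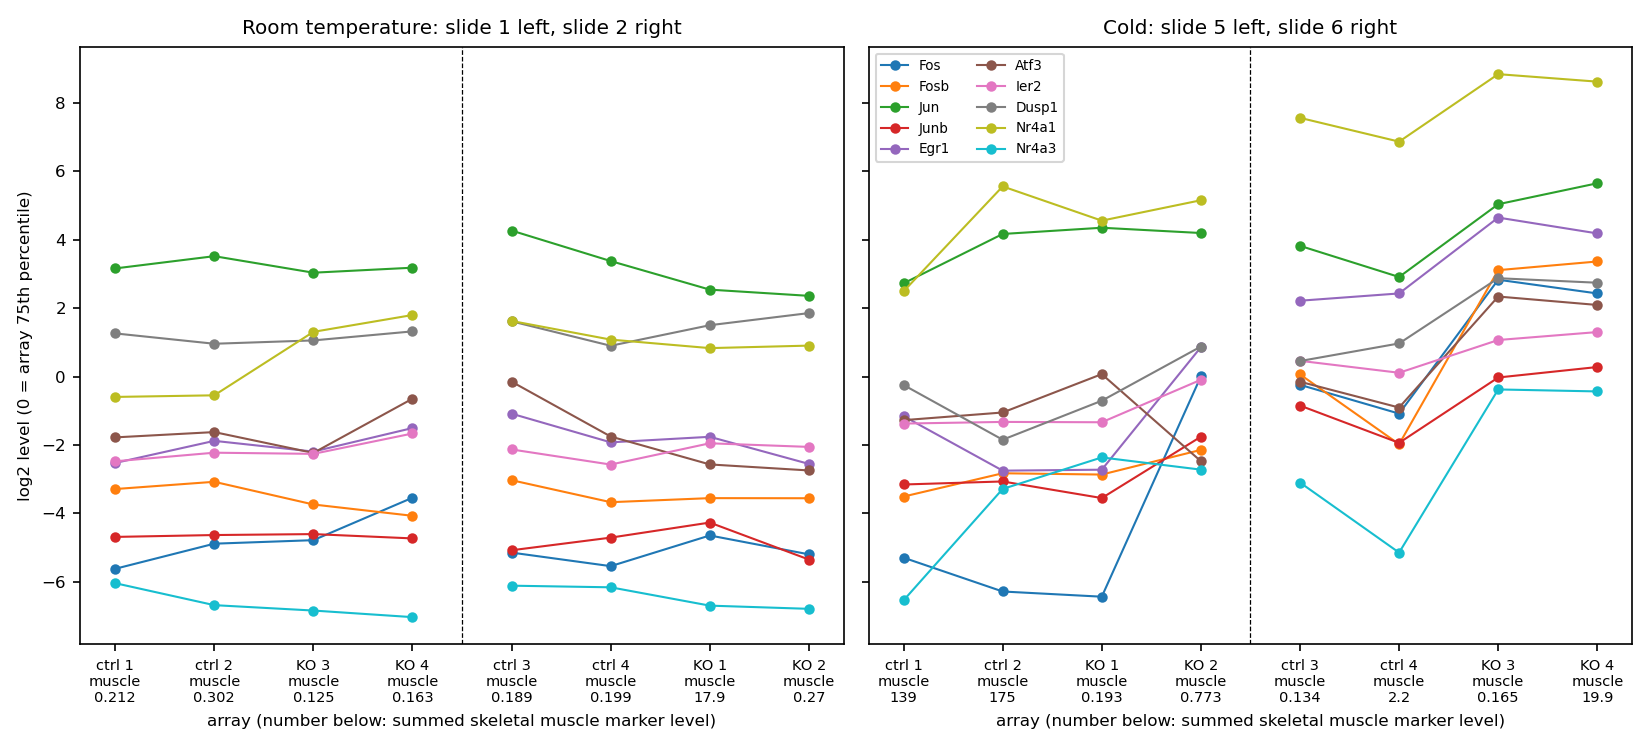
Level of the 10 genes (y axis, log2 relative to the array's 75th percentile) on the 16 mouse arrays (x axis, with the summed skeletal muscle marker level under each), room temperature left and cold right, the dashed line separating slides. Fos, Fosb, Egr1, Junb, Ier2, Dusp1 and Nr4a1 step up between the cold slides in both genotypes, with cold knockout array 2 intermediate for Fos and Egr1.

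**Figure D4:**
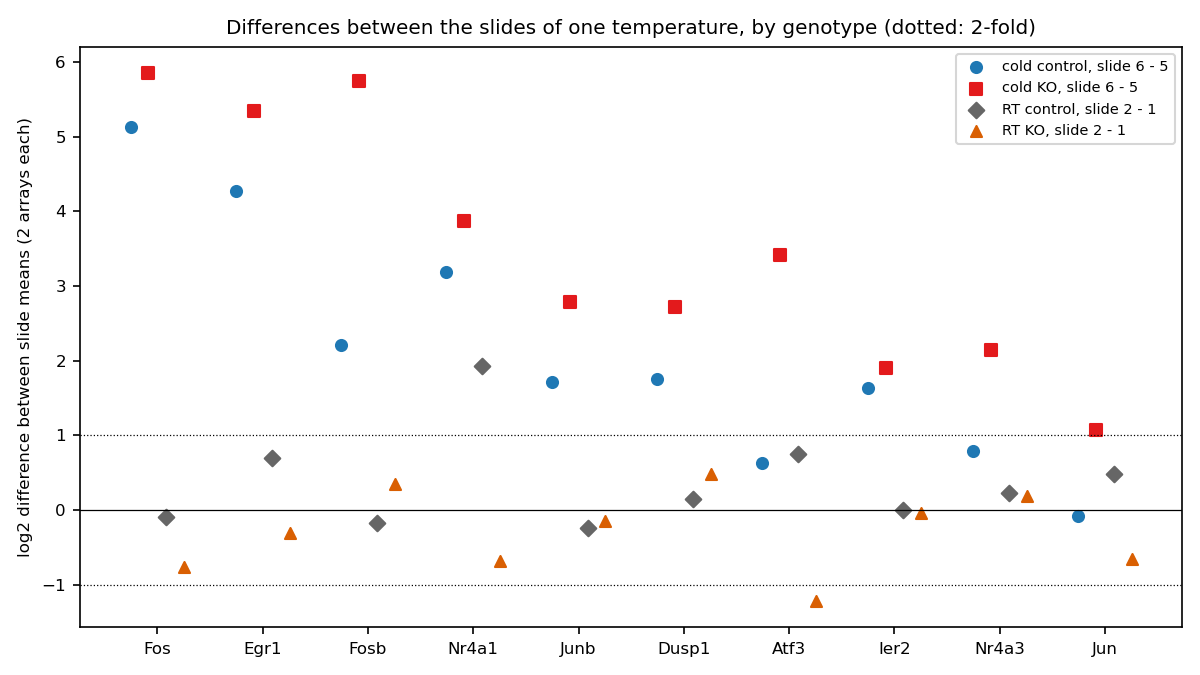
Log2 difference between the slide means (y axis, 2 arrays each) of the 4 mouse groups for each gene (x axis). The cold points reach 5.85 for Fos and 5.35 for Egr1, whereas the room-temperature points lie between -1.22 and 1.93. On the first cold slide Fos was well above background on knockout array 2 alone, so the size of its cold points is uncertain.

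The deviations of the 10 genes from their group means moved together over the 16 mouse arrays. Over the 45 pairs of genes the median Pearson correlation was 0.74 and the lowest 0.17, which describes arrays that share scaling and slides and has no p. The genes outside the set whose deviations were most like the mean of the 10 were Ccn1 (r = 0.98), Btg2 (0.97), Sik1 (0.96), Gem (0.96), Dusp10 (0.96), Zmym3 (0.95), Nrp2, Spty2d1, Mapre2 and Cnrip1 (0.93 to 0.94), among 14012 genes compared. Ccn1 encodes a secreted matrix protein, Btg2 an antiproliferative factor, Sik1 a kinase of the cAMP pathway, Gem a small GTPase and Dusp10 a MAP kinase phosphatase. Between the cold slides Btg2 differed by 2.10 in control and 4.81 in knockout arrays and Ccn1 by 2.01 and 3.26. In culture the genes moved together less, with median pair correlations of 0.30 over the 8 arrays of the Pparg experiment and 0.20 over the 8 of the Gyk experiment. The most similar other genes there were Rsph3a, Acta1 and Pdcd10 (0.98 to 0.99) in the first and Reps1, Rest and Zfp472 (0.97 to 0.99) in the second. The members themselves followed their mean unevenly in culture. Their correlations with it ran from -0.56 (Egr1) to 0.92 (Junb) in the first and from -0.55 (Jun) to 0.86 (Junb) in the second. These similar genes are therefore not read as companions of the set.

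At room temperature, none of the 10 genes differed between arrays labelled Pparg knockout and control arrays at the threshold in limma, and none had an unadjusted p under 0.05, while 34.8% of the 14068 genes changed (15.1% rose and 19.7% fell). The summed brown adipocyte markers were 3749 to 5163 on control and 1811 to 2065 on knockout arrays, and their part was not tested. The fit pools the spread of all 16 mouse arrays, including that of the cold. Fitted on the 8 room-temperature arrays alone, Jun was called lower on knockout arrays (-0.80, adjusted p = 0.0403, limma). Jun read 3.16, 3.52, 4.27 and 3.38 on control arrays and 2.54, 2.36, 3.04 and 3.19 on knockout arrays, where only the highest knockout array reached the lowest control array. The adjusted p in the fit of all mouse arrays was 0.114. Within slides Jun differed by -0.23 on the first and -1.37 on the second.

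Nr4a1 split the room-temperature control arrays, with -0.59 and -0.55 on the first slide and 1.63 and 1.08 on the second, and the knockout arrays lay at 0.83 to 1.80. The knockout difference was 2.13 on the first slide and -0.49 on the second (0.82 over both, SE 1.10, adjusted p = 0.593). Atf3 was at -1.78, -1.62, -0.15 and -1.75 on control arrays and at -2.57, -2.75, -2.23 and -0.65 on knockout arrays, with 1 high array in each group (-0.72, adjusted p = 0.534). Fos and Junb were well above background on 1 knockout array each and on no control array. The 95% confidence intervals were wide, for Egr1 from -3.15 to 2.85 around -0.15. The 75th percentile intensity was 293.2 to 407.6 on control and 498.6 to 604.8 on knockout arrays.

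In cultured cells, Gyk knockdown raised Egr1 and Atf3, 2 of the 9 genes tested, and 8.64% of 12219 genes changed (4.5% upward and 4.14% downward). Of 8 brown adipocyte markers 4 fell, with sums of 1243 to 1555 on control and 1109 to 1502 on knockdown arrays, and their part was not tested. Egr1 stood at -1.81, -1.59, -1.45 and -1.49 on control arrays and at 0.02, -0.43, -0.43 and -0.15 on knockdown arrays, a rise of 1.34 (SE 0.15, adjusted p = 0.00237, limma). Atf3 stood at -0.21, -0.23, -0.14 and -0.27 and at 1.23, 1.33, 0.32 and 0.66, a rise of 1.10 (SE 0.22, adjusted p = 0.0249, limma). In both genes all knockdown arrays exceeded all controls. Atf3 lost its call when any 1 control array was left out (adjusted p 0.0677 to 0.0743), while Egr1 kept it in all 8 such fits (highest adjusted p = 0.0131).

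Another 5 genes had an unadjusted p under 0.05 but did not pass the adjustment. Dusp1, the MAP kinase phosphatase, read 0.22, 0.65, 0.40 and 0.56 on control and -0.20, 0.15, -0.68 and -0.19 on knockdown arrays, all below the controls (-0.69, SE 0.19, adjusted p = 0.0611). Fosb differed by 0.49 with no overlap (adjusted p = 0.14), and Ier2 by 0.61 (adjusted p = 0.0804). Fos differed by 1.68 within the first slide and 0.13 within the second, and Jun by 0.31 and 1.33. Knockdown arrays 3 and 4, on the second slide, are those with the lowest signal, and on them Fos and Junb were not well above background. Without them Egr1 (1.38, adjusted p = 0.0106), Atf3 (1.49, adjusted p = 0.0031) and Fos (1.43, adjusted p = 0.0151) were called by limma, and the difference of Jun dropped from 0.82 to 0.26 (adjusted p = 0.379). Junb (-0.11) and Nr4a1 (-0.14) showed no detectable difference.

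In the Pparg knockdown in culture, Atf3 and Dusp1 fell and Junb rose, 3 of 9 tested, where 34.8% of 12844 genes changed (17.8% upward and 16.9% downward), and the median of the 9 genes was -0.0045. Cell markers moved too: the brown adipocyte sum was 1130 to 1428 on control and 404.8 to 545.8 on knockdown arrays (7 of 8 markers fell), and the preadipocyte and fibroblast sum 14.5 to 17.4 and 21.7 to 25.0. Their part in the result was not tested. Dusp1 went from -0.41, -0.46, -0.16 and -0.27 to -0.72, -0.69, -0.87 and -0.81 (-0.45, SE 0.09, adjusted p = 0.00508, limma). Atf3 went from 0.20, -0.18, 0.23 and 0.15 to -0.46, -0.55, -0.39 and -0.20 (-0.50, SE 0.12, adjusted p = 0.0104, limma). For both, all knockdown arrays lay below all control arrays. Junb differed by 0.44 (SE 0.15, adjusted p = 0.0465, limma), with control array 3 (-2.18) inside the knockdown range of -2.37 to -1.97, and it lost its call in 6 of 8 fits with 1 array left out: knockdown arrays 2, 3 or 4, or control arrays 1, 2 or 4 (highest adjusted p = 0.117). The Junb call was also lost with quantile normalization (0.36, adjusted p = 0.135), with no filter on dim probes (adjusted p = 0.0916) and with normexp (0.0339, adjusted p = 0.926).

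Egr1 shows the effect of the slides in this experiment. Its control arrays read -0.95 and -0.91 on the first slide and -1.62 and -1.71 on the second, and its knockdown arrays -0.31 and -0.27 and then -1.15 and -0.81. The knockdown was 0.64 higher within the first slide and 0.69 within the second. Over all 8 arrays the groups overlapped and the difference of 0.66 (SE 0.26) did not pass (adjusted p = 0.0823). With the replicate number as a block 5 genes were called, adding Egr1 (adjusted p = 0.00107, limma) and Fosb (0.25, adjusted p = 0.0149) to the 3 above, and the same 5 with slide as a block. Over all 12844 genes tested, the count rose too, from 4464 to 7465 with the replicate block and 7645 with the slide block. The 5 of 9 genes are thus near the share of all genes called with a block. Fos, Jun, Ier2 and Nr4a1 differed by 0.15, -0.17, -0.0045 and -0.08, each with an adjusted p over the threshold in the fit without a block.

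The other genes of the pathway were read from lists chosen with earlier results of these data known. The 21 genes that carry signals to the serum response and cAMP response elements had medians close to those of all genes. In the cold, 11 rose and 5 fell in control mice (41.6% and 25.1% of all genes). On knockout arrays 11 rose and 4 fell (41.1% and 24.5% of all genes). The medians were 0.27 and 0.26 against 0.23 and 0.24 for all genes. Crtc2, a coactivator of Creb1, rose by 1.31 in control mice (SE 0.10, adjusted p = 5.59e-08, limma), and Map2k1, a kinase upstream of Erk, by 1.24. None of these 21 genes was 2-fold higher on the second cold slide in both genotypes, against 0.889% of all genes. In the Gyk knockdown, where 4.5% of all genes rose, 1 of 21 did so, Creb1 itself (0.70, SE 0.15, adjusted p = 0.0296, limma).

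Of 22 further immediate-early effectors, 12 rose and 3 fell in the cold on knockout arrays (41.1% and 24.5% of all genes), and 6 rose and 5 fell in control mice (41.6% and 25.1% of all genes), with median differences of 0.999 and 0.25 beside 0.24 and 0.23 over all genes. Arc, which encodes a capsid-like protein best known from neurons, rose by 3.60 on knockout arrays (SE 0.25, adjusted p = 1.81e-08, limma), and its knockout difference was 3.53 larger in the cold than at room temperature (adjusted p = 9.56e-05). Gadd45b, a stress-response gene, rose in the cold by 3.25 on knockout arrays and by 1.83 in control mice. Its relative Gadd45a fell by 3.42 on knockout arrays. Of these 22 genes, 9 were at least 2-fold higher on the second cold slide in both genotypes, against 0.889% of all genes. In the Gyk knockdown 5 rose and 1 fell (4.5% and 4.14% of all genes), led by Btg2 (1.29, SE 0.18, adjusted p = 0.00649) and Gadd45g (0.96, adjusted p = 0.0145) in limma. In the Pparg knockdown 6 rose, Arc by 1.09, and 1 fell (17.8% and 16.9% of all genes).

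Of 16 other immediate-early transcription factors tested in mice, 3 rose and 3 fell in the cold in control mice (41.6% and 25.1% of all genes). On knockout arrays 6 rose and 1 fell (41.1% and 24.5% of all genes). The median differences were 0.21 and 0.76, beside 0.23 and 0.24 over all genes. Hes1, a target of Notch, fell in both, by 2.73 and 2.67. Srf, the serum response factor, rose in control mice by 1.27 (SE 0.22, adjusted p = 0.000123, limma) and on knockout arrays by 1.49, and Nr4a2, the third receptor of the Nr4a family, rose on knockout arrays by 1.99 (adjusted p = 0.0315). Myc rose on knockout arrays against controls in the cold by 2.18 (SE 0.41, adjusted p = 0.000913, limma). Of these 16 genes, 4 were at least 2-fold higher on the second cold slide in both genotypes, against 0.889% of all genes. In the Gyk knockdown 3 of 15 rose, beside 4.5% of all genes. These were Egr2 (1.24, SE 0.22, adjusted p = 0.0168), Klf4 (0.98, adjusted p = 0.00635) and Klf6 (0.61, adjusted p = 0.0366) in limma, all zinc-finger factors. In the Pparg knockdown 5 of 15 rose and 4 fell (17.8% and 16.9% of all genes), with Cebpd up by 1.67 and Cebpb lower at -0.72.

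Of 9 other AP-1 and Atf factors tested, 3 rose and 1 fell in the cold in control mice (41.6% and 25.1% of all genes). On knockout arrays 3 rose and 2 fell (41.1% and 24.5% of all genes). The median differences were -0.11 and 0.16, beside 0.23 and 0.24 over all genes. Fosl2, a Fos relative, fell in both (by 1.40 and 1.85), unlike Fos and Fosb. It was higher on knockout than control arrays at room temperature (2.34, SE 0.53, adjusted p = 0.0036, limma), in the cold (1.88, adjusted p = 0.0123) and in the Pparg knockdown in culture (0.98, adjusted p = 0.000141). Batf3 rose in the cold in both, by 0.96 and 1.97. Fosl2 and Maff, 2 of the 9, were at least 2-fold higher on the second cold slide in both genotypes, against 0.889% of all genes. No gene of this list changed in the Gyk knockdown at the threshold in limma, where 8.64% of all genes did.

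Genes that end the response are read against all genes tested in the cold. In control mice 41.6% of these rose and 25.1% fell, and on knockout arrays 41.1% rose and 24.5% fell. Between the cold slides 0.889% were at least 2-fold higher and 1.14% lower in both genotypes. Of 12 MAP kinase phosphatases and Sprouty-type inhibitors, 1 rose and 6 fell in control mice, led by Spred2 (-2.05) and Spred1 (-1.99). On knockout arrays 1 rose and 4 fell, Dusp14 by 3.16. The median difference of the 12 was -0.68 in control mice and -0.45 on knockout arrays, beside 0.23 and 0.24 over all genes. Of these 12 genes, 3 were at least 2-fold higher on the second cold slide in both genotypes. Of 5 factors of mRNA decay, 4 fell in each genotype, Cnot1 by 4.69 and 4.86, and Zfp36l2 rose by 1.29 on knockout arrays. Their medians were -0.95 and -1.10, and 0 of the 5 were 2-fold higher on the second cold slide in both genotypes. Single genes elsewhere shifted as far. In control mice Hbb-b2 read 4.49 to 5.92 at room temperature and -2.57 to -1.28 in the cold. Of the 6 red blood cell markers 1 fell there, 1 rose and 4 were not called. Slide and scan day differ with temperature, and the cause of such shifts was not tested. Of 7 cytokine and enzyme genes known as targets of AP-1 or Egr1, 2 rose and 3 fell in control mice, and 2 rose on knockout arrays, Mmp9 by 2.80. Between the cold slides 2 of these 7 were at least 2-fold higher and 1 lower in both genotypes. In the Pparg knockdown, where 17.8% of all genes rose, 4 of the 7 targets tested there did so, led by Il6 (2.37, SE 0.12, adjusted p = 2.75e-06, limma).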

How the data were processed

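Per the labels' protocols, RNA was extracted with TRIzol and 200 ng was labelled with Cy3. Per the file headers, the deposited spot intensity values are linear, and Agilent Feature Extraction 10.7.3.1 had subtracted the background and detrended them within each array. No scaling across arrays had been applied. The genome build of the array grid differs from GRCm38.p6, so the gene table served for names alone. Per array, 1377 control spots and 101 to 247 outlying spots were left out, log2 was taken, and the array's 75th percentile subtracted from it. Of 39429 probes, 27234 (69.1%) were named, and the brightest probe stood for a gene. A probe entered a fit if well above background on at least 4 of its arrays, with a value in every group. In the mouse fit Nr4a3 met this through cold arrays alone. Fos and Junb met it through cold arrays and 1 room-temperature knockout array each.

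Groups were compared with limma 3.58.1 (R 4.3.3, lmFit and eBayes, 2-sided, Benjamini-Hochberg over all genes tested, threshold 0.05), 8 arrays per culture experiment and 16 mouse arrays in 1 fit, and the code was tested on simulated data. No array was imputed. The members and lists were chosen with earlier results of these data known. Text names all members, up to 3 called genes per list and comparison with the largest change, and the 10 most similar genes. Same-numbered arrays pair in the Pparg culture experiment (correlation of deviations 0.70 to 0.77 in all 4 pairs), though other arrays of a slide correlate as well (0.69 to 0.73). In other comparisons the numbers did not pair by the limit of 0.1. Alternatives covered scaling, background correction, filters, probe choice, blocks and left-out arrays. Leaving out a slide, muscle-rich arrays or low-signal arrays was chosen after seeing the data. The number of arrays limits the precision.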

Additional observations from a re-analysis of the deposited data

Results flagged for a closer look

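Over the 80 sets of 4 arrays (10 genes in 8 groups), 6 single arrays stood apart from the other 3 by Dixon's criterion, which flags about 1 in 20 sets by chance. Control array 3 of the Pparg culture experiment was the highest of its group for Junb (-2.18, next -2.69) and for Ier2 (-0.54, next -1.05). Gyk knockdown array 3, the array with the lowest signal, was the lowest for Junb (-4.33, next -3.40). Room-temperature control array 3 was the lowest for Junb (-5.08, next -4.71, both not well above background) and the highest for Atf3 (-0.15, next -1.62). Pparg knockdown array 2 was the lowest for Nr4a3 (-7.54, next -7.08), a gene not well above background there. None of these 6 arrays was a cold one. The criterion looks for 1 array apart from the other 3, so it cannot flag arrays that split in pairs, as cold arrays did by slide.

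The knockout effect differed between cold and room temperature for Jun (2.21) and Nr4a3 (3.64), by the interaction term of the limma fit.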

How the results depend on the processing

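Of the counts of the 10 genes called, that of the Pparg knockdown went from 3 to 5 with the replicate number or the slide as a block, and to 2 with quantile normalization, normexp or no filter on dim probes, each time without Junb. The Gyk count went from 2 to 1 with no filter on dim probes and with the replicate block, and the room-temperature knockout count from 0 to 1 with only both groups compared in the fit. The cold knockout count went from 2 to 4 with normexp, to 6 with the replicate block or slide block, to 8 without the first cold slide and to 0 without the second. The cold count in control mice went from 4 to 2 with normexp, 6 without the first cold slide and 4, not all the same genes, without the second. On knockout arrays it went from 9 to 9 and 6 without these slides. The count for the knockout effect between temperatures went from 2 to 1 with quantile normalization or without the muscle-rich arrays, to 0 with normexp or without the second cold slide, and to 7 without the first. Leaving out single arrays gave 2 to 3 calls in the Pparg knockdown, 1 to 3 in the Gyk knockdown, 0 in every fit of the room-temperature knockout, 2 to 8 in the cold knockout, 3 to 4 for cold in control mice, 6 to 9 for cold on knockout arrays and 2 to 3 for the difference of effects. Counts over all genes in these fits are given below only in part, so the changes are not read as particular to the 10 genes. The causes were not tested.

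Signs turned under normexp for Fos (-0.33), Fosb (-0.22) and Nr4a1 (0.0126) in the Pparg knockdown and for Junb in the Gyk knockdown (0.16) and room-temperature knockout (-0.091). Without the low-signal arrays Junb was 0.19 in the Gyk knockdown. Without muscle-rich arrays Junb was -0.12 in the room-temperature knockout and Dusp1 -0.40 for cold on knockout arrays. In the cold knockout comparison these arrays turned Fos (-0.54), Junb (-0.39), Egr1 (-1.40), Ier2 (-0.41) and Nr4a1 (-1.03), and in the difference of effects Fos (-1.33), Junb (-0.27), Egr1 (-1.17), Ier2 (-0.76) and Nr4a1 (-1.98). Without the second cold slide Atf3 was -0.0393 in the cold knockout, Egr1 -0.10 for cold in control mice and Dusp1 -1.35 for cold on knockout arrays. Median centring gave -0.0247 for this last difference of Dusp1.

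With single arrays left out, signs turned for Ier2 in the Pparg knockdown (-0.10 to 0.12), Junb in the Gyk knockdown (-0.25 to 0.14), Junb (-0.12 to 0.24) and Egr1 (-0.37 to 0.11) in the room-temperature knockout, Jun for cold in control mice (-0.43 to 0.0543), Dusp1 for cold on knockout arrays (-0.46 to 0.73) and Nr4a1 in the difference of effects (-0.69 to 1.10). None of these was called in the fit reported.

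Over all genes, the Pparg knockdown count of 4464 became 7465 with the replicate block and 7645 with the slide block. The Gyk count of 1056 became 250 with normexp, 449 with no filter and 114 with the replicate block, and 291 to 1341 with an array left out. The room-temperature knockout count of 4902 became 2388 with normexp, and the cold one of 5385 became 2869 without the second cold slide. The count for the difference of effects, 1875, became 600 with normexp, 3093 without the first cold slide and 692 without the second. Signal over background limits Nr4a3, Fos and Junb, and 4 arrays a group limit the precision.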
